A study of Mus musculus with 14 samples.

Results

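The 40 genes described here act in the G2 phase and in mitosis. They were chosen by symbol and function, with no measured value in the rule though with earlier results of these data known, and all 40 were found among the 24346 genes of the count table and the 24340 genes of the RPKM table. Every one of the 40 also passed the filter on low counts (at least 10 counts in at least 2 libraries), as did 13130 genes in all. Polyadenylated RNA of MC3T3-E1, a mouse line of preosteoblasts that can be brought to form mineralising osteoblasts, was sequenced in 14 libraries. They were MACF1 knockdown (labelled sh) at days 0, 3, 5 and 10 and control (labelled NC) at the same days, with 2 libraries in each group at days 0, 3 and 5 and 1 in each group at day 10. MACF1 is a spectraplakin, a cytoskeletal protein that crosslinks actin and microtubules. From what event the days run, which vector carried the knockdown and how many clones were used was stated in no source used here. The design text speaks of biological replicates, and nothing says that they were separate cultures, so a p-value here reflects the spread of these libraries only, part or all of which could be technical.

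A cell leaves G2 when cyclin B and its kinase CDK1 become active, which the CDC25 phosphatases bring about. CDK1, Polo-like and Aurora kinases then drive chromosome condensation and spindle assembly, the spindle checkpoint holds anaphase until every kinetochore is attached, and the anaphase-promoting complex ends mitosis by having cyclin B and securin destroyed. Transcripts of these genes rise late in the cycle through B-MYB, FOXM1 and the MuvB core, are held down in resting cells by the DREAM complex, and fall when osteoblast precursors leave the cycle to differentiate. In bulk RNA, fewer cycling cells and less of these transcripts per cell cannot be told apart.

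The genes share promoter elements that their choice did not use. The cell cycle homology region (CHR), whose core was searched as TTTGAA or TTCGAA, is a contact of MuvB, and CCAAT is bound by NF-Y. Both were searched on both strands in RefSeq windows (GRCm38.p6) of 300 bases, from 250 before to 50 after the start of each gene, which were at hand for 34 of the 40 genes. A CHR core was found in 27 of the 34 windows (79.4%), against 19.4% of the windows of 27025 genes. CCAAT was found in 25 of the 34 (73.5%), against 37.9% of all windows, and both motifs in 23 of the 34 (67.6%), against 7.70%. More than a single CCAAT stood in 17 of the 34, and in 12.2% of all windows. These are matches of letters, not bound sites. Shown are the 120 bases before the RefSeq start of Cdk1, Ccnb2, Plk1, Aurka and Cdc20, which hold both motifs in their windows, and of Mad2l1, whose window holds neither, 5′ to 3′ on the strand of the gene with matches in capitals.
Cdk1 (chr10:69352913-69353032, minus strand): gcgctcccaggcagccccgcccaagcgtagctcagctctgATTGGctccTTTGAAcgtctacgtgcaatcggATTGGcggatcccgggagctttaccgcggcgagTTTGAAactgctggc
Ccnb2 (chr9:70421555-70421674, minus strand): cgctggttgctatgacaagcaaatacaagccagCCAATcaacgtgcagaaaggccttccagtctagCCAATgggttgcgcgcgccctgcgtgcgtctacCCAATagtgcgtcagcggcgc
Plk1 (chr7:122159315-122159434, plus strand): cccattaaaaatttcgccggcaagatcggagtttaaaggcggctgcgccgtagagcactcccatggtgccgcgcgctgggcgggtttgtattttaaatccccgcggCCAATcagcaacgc
Aurka (chr2:172370571-172370690, minus strand): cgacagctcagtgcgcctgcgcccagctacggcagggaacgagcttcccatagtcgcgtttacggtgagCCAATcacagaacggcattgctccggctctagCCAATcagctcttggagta
Cdc20 (chr4:118437344-118437463, minus strand): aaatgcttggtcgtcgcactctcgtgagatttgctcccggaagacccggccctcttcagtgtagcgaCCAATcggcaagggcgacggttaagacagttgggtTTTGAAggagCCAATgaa
Mad2l1 (chr6:66535101-66535220, plus strand): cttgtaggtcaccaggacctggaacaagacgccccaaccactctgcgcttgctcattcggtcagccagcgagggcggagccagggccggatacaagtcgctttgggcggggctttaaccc

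In the Cdk1 stretch a CHR core begins 15 bases before the start and another 71 bases before it, with CCAAT on the other strand at 48 and 80 bases. Ccnb2 shows 3 copies of CCAAT, at 87, 54 and 21 bases before the start. Its CHR matches lie outside the printed stretch, at 167 bases before and 5 bases after the start, as do those of Plk1 and Aurka, 31 and 33 bases after it. In Cdc20 a CHR core at 18 bases stands between CCAAT copies at 53 and 8 bases. In none of the printed stretches did a match of one motif overlap a match of the other. Birc5, Ccnb1, Cenpe, Nuf2, Nusap1 and Pttg1 also held no CHR core in their windows. The Mad2l1 window ended at base 66535270, before the start of this gene in GENCODE M21 at 66535390. A motif missing from a window is therefore missing near the RefSeq start only.

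The libraries held 8044687 to 23301514 counts, and the 40 genes had at least 62 counts in each library. Macf1, read first as a check of the labels, did not pass as lower in the libraries labelled knockdown: it stood in them at 157.2 and 163.0, 171.7 and 169.8, 168.9 and 181.1, and 129.3 CPM in the order of days 0, 3, 5 and 10, against 154.3 and 159.7, 188.8 and 55.2, 176.2 and 204.5, and 195.5 CPM in control. CPM are counts relative to library size after TMM scaling (trimmed mean of M values). Averaged over days 0, 3 and 5, its log2 fold change came to 0.13 (SE 0.24, adjusted p = 0.724). Leaving out control day 3 replicate 2, the library with 55.2 CPM, it came to −0.08 (SE 0.06, adjusted p = 0.274). At day 10, with 1 library in each condition, the library labelled knockdown was the lower one. Every direction given here is therefore that of the libraries labelled knockdown. The 8 osteoblast markers summed to 11905.7 to 27103.4 CPM but were uneven. Across libraries Col1a1 ranged over 2559.5 to 7196.4, Col1a2 over 5062.0 to 9218.4, Spp1 over 599.1 to 7366.0 and Ibsp over 1.47 to 8389.0 CPM. Runx2 ranged over 47.4 to 180.7, Sp7 over 31.5 to 125.7, Alpl over 0.209 to 156.1 and Bglap over 0.0 to 27.1 CPM. Markers of macrophages, endothelial cells, adipocytes, muscle and epithelium reached at most 8.06 CPM in sum and those of chondrocytes 147.3 to 368.5 CPM. Of the chondrocyte markers, Col2a1 ranged over 46.1 to 263.2 and Sox9 over 65.4 to 259.5 CPM, while Acan reached at most 0.139 CPM. Plin1, Lep, Myod1 and Epcam were not in the count table and do not enter these sums. Control day 3 replicate 2 stood apart: it had the fewest counts. Ribosomal protein genes took 19.6% of them, against 5.66% to 11.2% in the other libraries. That share was also lower in the libraries labelled knockdown than in control at each day. It was 7.24% and 6.79% against 9.67% and 8.71% at day 0, and 5.8% and 5.66% against 8.52% and 19.6% at day 3. At day 5 it was 6.11% and 5.93% against 8.86% and 8.16%. Its part in the differences between the conditions was not tested. In control day 3 replicate 2, 33 of the 40 genes lay below replicate 1, with log2 ratios down to −2.94 for Anln and −2.92 for Ect2. Birc5, Cenpa and Pttg1 lay above by 0.80, 1.01 and 1.37. Across the 40 genes these ratios had a Spearman correlation of −0.28 with exon length, and the ratios of the day 3 pair labelled knockdown had one of −0.25, as a description only. Leaving out control day 3 replicate 2 lowered the common dispersion of the fit to 0.0115, against 0.0474 with all libraries. Leaving out its replicate 1 instead also gave 0.0115, so the drop does not tell which library of the pair is the odd one. Results are given with and without replicate 2, a choice made after seeing the data. The part of RNA quality was not tested.

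**Figure D1:**
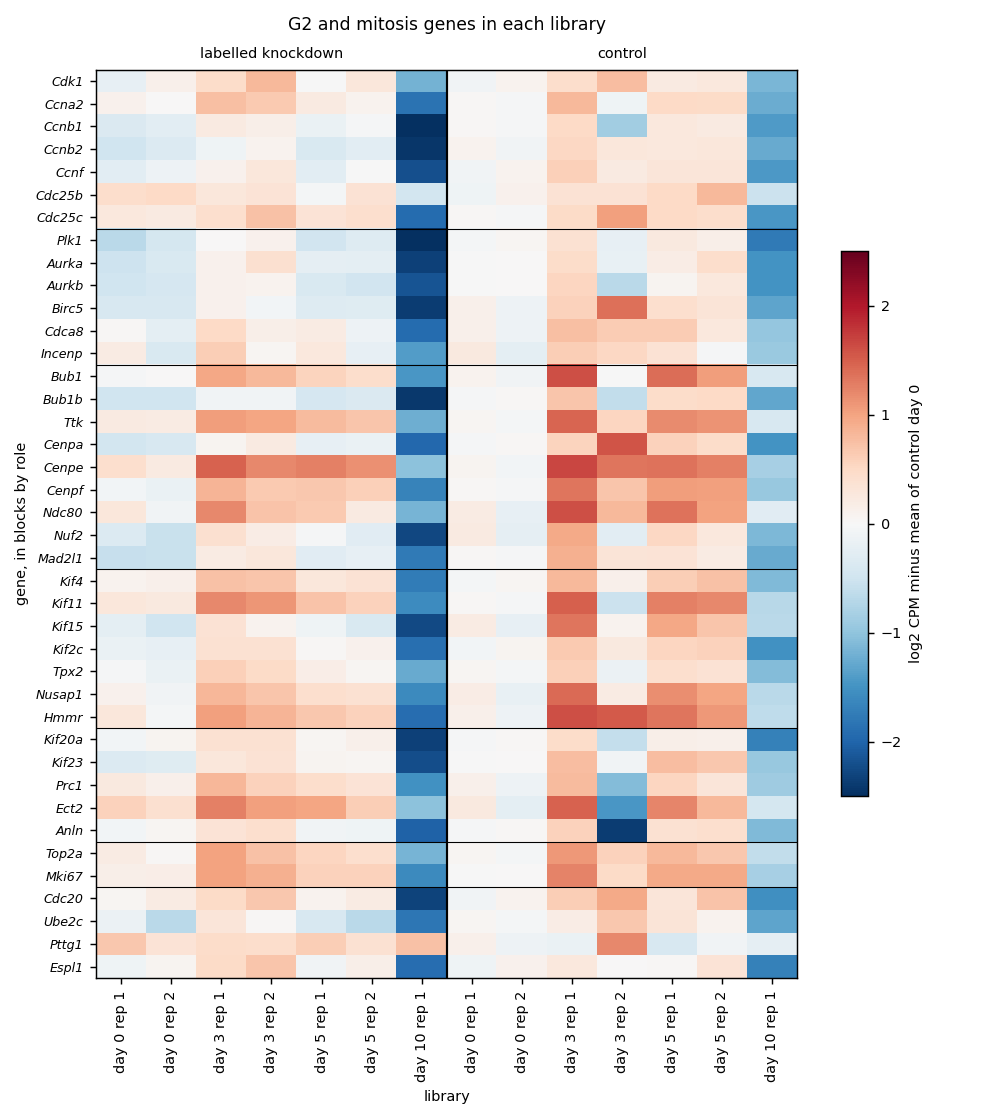
Level of each of the 40 genes (rows, in blocks by role) in each of the 14 libraries (columns, labelled knockdown left of control), as log2 CPM minus the mean of control day 0. Blue marks lower and red higher levels. Day 10 is blue in both conditions except for Pttg1 labelled knockdown, and control day 3 replicate 2 differs from its neighbours, with Anln lowest.

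Per length, the genes spanned a wide range of levels. Their mean RPKM at day 0 ranged in the libraries labelled knockdown between 2.83 (Espl1, the separase that cuts cohesin) and 69.2 (Top2a), with a median of 23.4, and in control between 2.79 (Espl1) and 70.4 (Tpx2), with a median of 23.5. At day 5 the median was 24.0 RPKM in the libraries labelled knockdown and 32.4 in control, and at day 10 it was 6.03 and 10.1 RPKM. Together the 40 genes took 0.429% and 0.410% of the counts (day 0), 0.704% and 0.667% (day 3), 0.531% and 0.504% (day 5) and 0.131% (day 10) in the libraries labelled knockdown. In control they took 0.421% and 0.408%, 0.818% and 0.443%, 0.671% and 0.652%, and 0.205% on these days. The share was above that of day 0 in every library of days 3 and 5, was lower in the libraries labelled knockdown than in control at day 5, and was lowest at day 10 in both conditions.

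**Figure D2:**
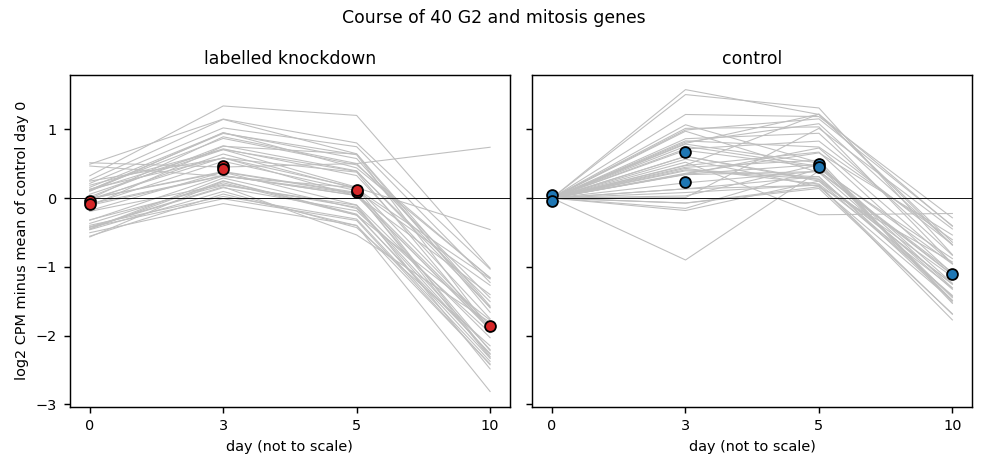
Course of the 40 genes over days 0, 3, 5 and 10 (x axis, not to scale) in libraries labelled knockdown (left) and control (right), as log2 CPM minus the mean of control day 0. Grey lines are group means of single genes and points are the medians over the 40 genes in each library. The medians at day 5 are 0.09 and 0.11 in the libraries labelled knockdown and 0.50 and 0.45 in control, and at day 10 −1.86 and −1.10.

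Averaged over days 0, 3 and 5, 8 of the 40 genes were lower in the libraries labelled knockdown and 0 were higher (quasi-likelihood test of edgeR, Benjamini-Hochberg adjusted over 13130 genes; at an unadjusted p under 0.05, 15 lower and 0 higher, and by DESeq2 12 lower and 0 higher). Among all genes tested 11.9% were lower and 15.0% higher by the edgeR test. Counts by unadjusted p and by DESeq2 have, here and below, no share over all genes beside them. The same holds for counts without a single library outside the control day 3 pair. Such counts are no result about the 40 alone. The 8 were Cenpa, Birc5, Kif15, Mad2l1, Ccnb2, Ube2c, Plk1 and Hmmr, and the median log2 fold change of the 40 was −0.20, against −0.003 over all genes. Leaving out control day 3 replicate 2, 25 were lower (22.2% of all genes) and 1, Pttg1, was higher (24.9%), with a median of −0.31. Leaving out its replicate 1 instead, so that control day 3 held replicate 2 alone, 14 were lower (26.0% of all genes) and 6 higher (32.0%). Leaving out any other library of days 0 to 5 gave 4 to 6 lower and 0 higher. With no model, 4 of the 40 genes had all 6 libraries labelled knockdown below both same-day control libraries. They were Ccnb2, Birc5, Cenpa and Mad2l1, a share near the 9.55% of all genes. Without control day 3 replicate 2 the same layout held for 15 genes (15.1% of all genes), a count added after the values were seen.

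Of days 0, 3 and 5, the difference was widest at day 5. At day 0 the median log2 fold change of the 40 was −0.02 (0.03 over all genes), and 0 of the 40 passed in either direction (2.68% of all genes lower, 4.41% higher; unadjusted, 3 lower and 1 higher; DESeq2, 1 lower). At day 3 Birc5 and Cenpa passed as lower and 0 as higher, with a median of −0.11. These 2 were near the share of all genes, of which 5.52% were lower and 7.06% higher. At an unadjusted p under 0.05, 4 were lower and 0 higher, and DESeq2 gave 4 lower and 0 higher. Leaving out any library of days 0 to 5 other than the control day 3 pair left 0 lower at day 3. At day 5, 39 of the 40 values were below 0 with a median of −0.46 (0.007 over all genes), though 0 passed (2.47% of all genes lower, 5.32% higher; unadjusted, 15 lower and 0 higher; DESeq2, 4 lower). With the replicate number as a block, 4 passed as lower at day 5 (3.50% of all genes). At day 0 both libraries labelled knockdown were below both of control for 16 of the 40 (29.9% of all genes) and above for 9 (33.8%). At day 5 they were below for 33 of the 40 (31.5% of all genes). The exceptions were Cdk1, Cenpe, Ect2, Espl1, Incenp and Prc1, which overlapped, and Pttg1, which was above.

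The spread of the control day 3 pair enters the tests of the other days through the shared dispersion. Leaving out either library of that pair takes this spread out of the fit, at a common dispersion of 0.0115 both times. All libraries of days 0 and 5 stay in. That both fits call the same genes at day 5 is therefore no separate check. Without control day 3 replicate 2, 28 of the 40 were lower at day 5 (14.9% of all genes) and Pttg1 was higher (16.6%), and the same 28 were lower without replicate 1 (14.4%). At day 0, without replicate 2, 11 were lower (12.9%), namely Aurka, Aurkb, Birc5, Bub1b, Ccnb1, Ccnb2, Cenpa, Kif23, Mad2l1, Nuf2 and Plk1, and Cdc25b and Kif11 were higher (15.8%). At day 3 the choice decided the result. Without replicate 2, 15 were lower (9.18%) and 0 higher, whereas without replicate 1, 5 were lower (26.8%) and 19 higher (32.0%).

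**Figure D3:**
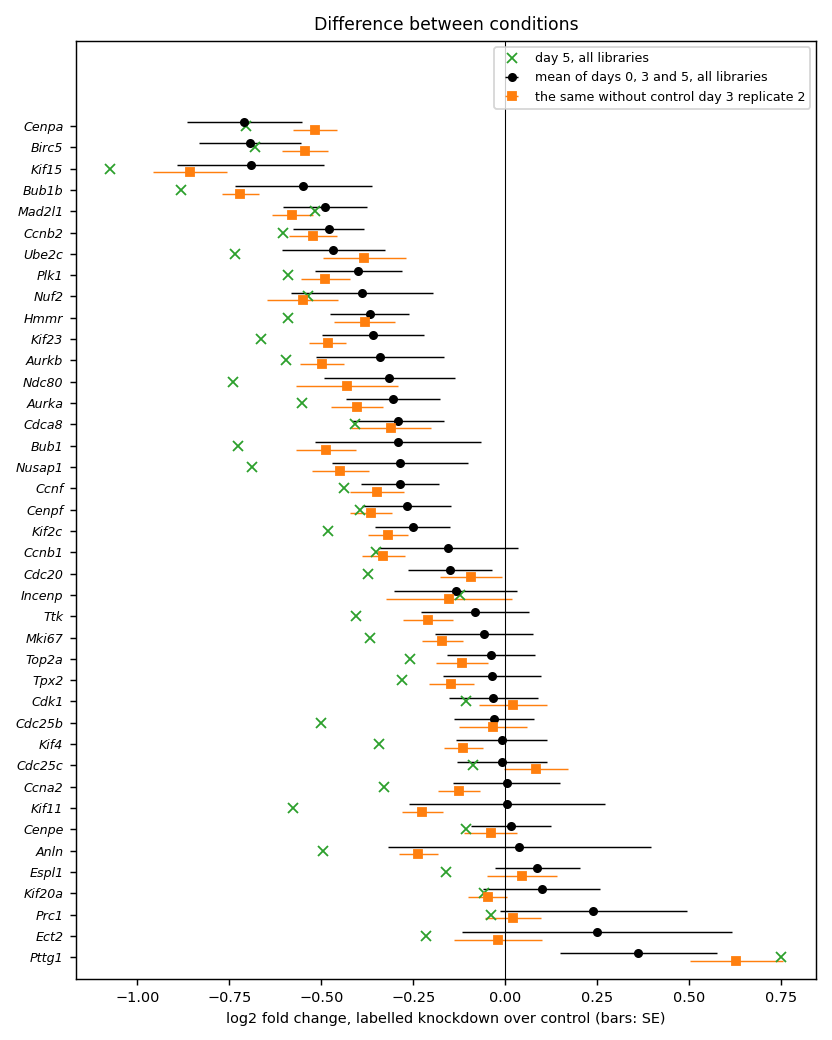
Log2 fold change, labelled knockdown over control, of each of the 40 genes. Black circles give the mean of days 0, 3 and 5 from all libraries and orange squares the same without control day 3 replicate 2 (bars are SE), and green crosses give day 5. The crosses lie left of 0 for 39 of 40 genes, Pttg1 being the exception, and the bars of Anln, Ect2 and Kif11 shrink without the library.

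Among the 7 genes of the CDK1 engine, 1 passed as lower averaged over the days and 0 as higher (11.9% and 15.0% of all genes). Their median log2 fold change was −0.03. The lists by role, here and below, are small, so that such counts are no result about a single role. Cdk1 (ENSMUSG00000019942.10, chromosome 10, 69335146 to 69352938, minus strand, GRCm38), the kinase that starts mitosis, stood at 63.8 and 80.2 CPM (day 0), 100.8 and 129.2 (day 3), 72.2 and 89.5 (day 5) and 32.4 (day 10) in the libraries labelled knockdown. In control there were 69.0 and 77.6 CPM (day 0), 99.5 and 124.8 (day 3), 85.6 and 88.2 (day 5) and 33.1 (day 10). The conditions overlapped at each of days 0, 3 and 5, and the averaged log2 fold change was −0.03 (SE 0.12, adjusted p = 0.872). Ccnb2 (ENSMUSG00000032218.6, chromosome 9, 70407692 to 70421547, minus strand, GRCm38), a B-type cyclin that binds CDK1, had 41.4 and 46.0 CPM (day 0), 54.6 and 61.9 (day 3), 44.7 and 48.8 (day 5) and 10.9 (day 10) in the libraries labelled knockdown. The control values were 62.2 and 55.1 CPM (day 0), 83.8 and 70.9 (day 3), 70.6 and 71.4 (day 5) and 24.6 (day 10). In CPM its libraries labelled knockdown were the low ones at every day, without overlap, and the averaged log2 fold change was −0.48 (SE 0.10, adjusted p = 0.00532). In deposited RPKM it overlapped at day 3, at 34.1 and 40.3 labelled knockdown against 50.6 and 34.2 in control. Ccnb1, the other main B-type cyclin, had 41.5 and 44.7 CPM (day 0), 63.0 and 59.0 (day 3), 47.5 and 52.4 (day 5) and 9.58 (day 10) in the libraries labelled knockdown. Control libraries gave 54.5 and 52.8 CPM (day 0), 75.9 and 29.5 (day 3), 64.5 and 62.8 (day 5) and 20.1 (day 10). It lay below both control libraries at days 0 and 5 and between them at day 3, and its averaged value of −0.16 (adjusted p = 0.582) did not pass. Leaving out control day 3 replicate 2 it passed, at −0.33 (adjusted p = 0.000698). Ccna2, the cyclin of S and G2 phase, was measured at 180.8 and 167.7 CPM (day 0), 281.5 and 264.9 (day 3), 196.7 and 177.6 (day 5) and 46.4 (day 10) in the libraries labelled knockdown. Control stood at 171.7 and 163.5 CPM (day 0), 292.1 and 155.6 (day 3), 236.8 and 233.5 (day 5) and 71.0 (day 10). The groups overlapped at days 0 and 3 and separated at day 5, and the averaged log2 fold change was 0.00 (SE 0.14, adjusted p = 0.988).

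The CDC25 phosphatases, which free CDK1 of its inhibitory phosphates, stood above control at day 0 in the libraries labelled knockdown. Cdc25b stood at 48.4 and 50.3 CPM (day 0), 43.5 and 45.2 (day 3), 34.3 and 45.8 (day 5) and 26.0 (day 10) in the libraries labelled knockdown. Control held 33.2 and 38.4 CPM (day 0), 45.9 and 45.8 (day 3), 50.6 and 62.7 (day 5) and 24.6 (day 10). Both libraries labelled knockdown were above control at day 0 and below it at days 3 and 5, at day 3 by little. Its change between day 0 and day 5 was lower by 0.96 in the libraries labelled knockdown on the log2 scale, at −0.96 (adjusted p = 0.173) with all libraries and −0.97 (adjusted p = 0.0114) without control day 3 replicate 2. Cdc25c had 16.4 and 16.1 CPM (day 0), 18.3 and 22.9 (day 3), 17.3 and 18.3 (day 5) and 3.6 (day 10) in the libraries labelled knockdown. In control there were 13.9 and 13.5 CPM (day 0), 19.1 and 27.9 (day 3), 19.3 and 18.5 (day 5) and 5.02 (day 10). The libraries labelled knockdown were again above control at day 0 and below it at day 5, there by less than 1 CPM between the nearest libraries. Its averaged log2 fold change was −0.01 (SE 0.12, adjusted p = 0.968). Ccnf, the F-box protein cyclin F, had an averaged value of −0.29 (adjusted p = 0.0697) and passed as lower without control day 3 replicate 2, at −0.35 (adjusted p = 0.00216).

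Of the 6 mitotic kinases and chromosomal passengers, Birc5 and Plk1 passed as lower and 0 as higher (11.9% and 15.0% of all genes). All 6 values were below 0, with a median of −0.32. Birc5 (ENSMUSG00000017716.13, chromosome 11, 117849251 to 117855743, plus strand, GRCm38), or survivin, which brings the passenger complex to the centromere, stood at 64.3 and 64.2 CPM (day 0), 91.3 and 81.0 (day 3), 68.0 and 68.9 (day 5) and 16.3 (day 10) in the libraries labelled knockdown. The control values were 91.8 and 77.9 CPM (day 0), 125.9 and 218.8 (day 3), 113.1 and 106.0 (day 5) and 33.7 (day 10). The libraries labelled knockdown were the low ones at each day, and the log2 fold change was −0.69 (SE 0.14, adjusted p = 0.00517) averaged and −0.998 (adjusted p = 0.0288) at day 3. Control day 3 replicate 2 held its highest value, and without that library the averaged value was −0.55 (adjusted p = 2.89e-05) and that of day 3 −0.55 (adjusted p = 0.00845). Plk1 (ENSMUSG00000030867.6, chromosome 7, 122159439 to 122169873, plus strand, GRCm38), the Polo-like kinase of spindle poles and kinetochores, was at 35.5 and 42.0 CPM (day 0), 57.4 and 60.8 (day 3), 40.7 and 45.4 (day 5) and 8.07 (day 10) in the libraries labelled knockdown. Control libraries gave 54.7 and 58.8 CPM (day 0), 73.4 and 49.0 (day 3), 66.8 and 62.8 (day 5) and 16.6 (day 10). Its libraries labelled knockdown were below control at days 0 and 5 and between the 2 control libraries at day 3, with an averaged log2 fold change of −0.40 (SE 0.12, adjusted p = 0.0312).

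The Aurora kinases showed the same layout. Aurka, which matures the spindle poles, had 62.7 and 68.4 CPM (day 0), 97.0 and 117.4 (day 3), 76.5 and 75.8 (day 5) and 17.8 (day 10) in the libraries labelled knockdown. Control stood at 89.2 and 89.9 CPM (day 0), 122.9 and 78.6 (day 3), 101.6 and 121.8 (day 5) and 31.9 (day 10). Aurkb, the kinase of the passenger complex, had 35.6 and 37.9 CPM (day 0), 54.5 and 53.6 (day 3), 38.6 and 36.5 (day 5) and 11.4 (day 10) in the libraries labelled knockdown. Control held 50.2 and 50.9 CPM (day 0), 73.0 and 31.7 (day 3), 53.1 and 60.5 (day 5) and 18 (day 10). For both, the libraries labelled knockdown were below control at days 0 and 5 and lay between the control libraries at day 3. The averaged log2 fold changes were −0.30 (adjusted p = 0.106) and −0.34 (adjusted p = 0.179). Leaving out control day 3 replicate 2 they were −0.40 (adjusted p = 0.000662) and −0.50 (adjusted p = 4.43e-05). The remaining passengers, Cdca8 (borealin) and Incenp, had averaged values of −0.29 (adjusted p = 0.114) and −0.14 (adjusted p = 0.588). Cdca8 passed without that library, at −0.31 (adjusted p = 0.0386), and Incenp did not, at −0.15 (adjusted p = 0.497).

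Of the 9 kinetochore and spindle checkpoint genes, Cenpa and Mad2l1 passed as lower and 0 as higher (11.9% and 15.0% of all genes). Their median was −0.32. Cenpa (ENSMUSG00000029177.7, chromosome 5, 30666777 to 30674830, plus strand, GRCm38), the histone H3 variant that marks centromeres, had the largest fall of the 40, at −0.71 (SE 0.16, adjusted p = 0.00873). It stood at 40.0 and 41.7 CPM (day 0), 57.6 and 64.4 (day 3), 47.3 and 49.2 (day 5) and 14.1 (day 10) in the libraries labelled knockdown. In control there were 53.9 and 55.8 CPM (day 0), 81.0 and 162.8 (day 3), 82.0 and 75.2 (day 5) and 19.5 (day 10). The libraries labelled knockdown were lower at every day, and control day 3 replicate 2 was again the highest. Without it the averaged log2 fold change was −0.52 (adjusted p = 2.79e-05), and the largest fall was then that of Kif15. Mad2l1 (ENSMUSG00000029910.12, chromosome 6, 66535390 to 66547220, plus strand, GRCm38), the checkpoint protein that sequesters CDC20, stood at 56.4 and 57.0 CPM (day 0), 96.7 and 102.6 (day 3), 68.5 and 73.1 (day 5) and 24.5 (day 10) in the libraries labelled knockdown. The control values were 86.2 and 81.7 CPM (day 0), 155.6 and 104.7 (day 3), 106.4 and 96.2 (day 5) and 35.2 (day 10). In CPM it lay below control at every day, at day 3 only just, with an averaged log2 fold change of −0.49 (SE 0.11, adjusted p = 0.011). In deposited RPKM it overlapped at day 3, at 50.4 and 55.8 labelled knockdown against 78.5 and 42.1 in control.

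Of the checkpoint kinases, Bub1 and Ttk lay below both control libraries at day 5 alone. Bub1 had 20.9 and 21.3 CPM (day 0), 41.6 and 37.4 (day 3), 31.3 and 29.0 (day 5) and 7.78 (day 10) in the libraries labelled knockdown. Control libraries gave 22.6 and 20 CPM (day 0), 64.8 and 21 (day 3), 56.0 and 43.8 (day 5) and 16.0 (day 10). The conditions overlapped at day 0 and separated at day 5, where the log2 fold change was −0.73 (adjusted p = 0.332) with all libraries and −0.74 (adjusted p = 0.00136) without control day 3 replicate 2. Ttk (Mps1) had averaged and day 5 values of −0.08 (adjusted p = 0.712) and −0.41 (adjusted p = 0.419). Bub1b (BubR1) had an averaged value of −0.55 (adjusted p = 0.0531), and −0.72 (adjusted p = 4.69e-07) without that library. Cenpf, a large protein of the outer kinetochore, was at 176.9 and 166.8 CPM (day 0), 335.5 and 294.3 (day 3), 297.5 and 283.5 (day 5) and 58.9 (day 10) in the libraries labelled knockdown. Control stood at 191.3 and 181.5 CPM (day 0), 469.2 and 301.9 (day 3), 386.1 and 377.8 (day 5) and 96.2 (day 10). It was lower in the libraries labelled knockdown at days 0 and 5 and overlapped at day 3, with an averaged value of −0.27 (adjusted p = 0.128), and −0.36 (adjusted p = 0.000306) without that library. Ndc80 and Nuf2, which together bind the ends of microtubules, had averaged values of −0.32 (adjusted p = 0.223) and −0.39 (adjusted p = 0.165), and −0.43 (adjusted p = 0.0286) and −0.55 (adjusted p = 0.000702) without it. Cenpe, a kinetochore motor, is described with the change over time.

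Of the 7 spindle motors and microtubule binders, Kif15 and Hmmr passed as lower and 0 as higher (11.9% and 15.0% of all genes). Their median, over the 7, was −0.25. Kif15 (ENSMUSG00000036768.5, chromosome 9, 122951046 to 123018733, plus strand, GRCm38), a motor that can help Kif11 hold the poles apart, had averaged values of −0.69 (SE 0.20, adjusted p = 0.0284), and −0.86 (adjusted p = 3.89e-05) without control day 3 replicate 2. Hmmr (ENSMUSG00000020330.14, chromosome 11, 40701395 to 40733422, minus strand, GRCm38), a spindle protein that also binds hyaluronan, had 120.2 and 95.3 CPM (day 0), 201.8 and 177.6 (day 3), 158.2 and 147.4 (day 5) and 26.2 (day 10) in the libraries labelled knockdown. Control held 107.4 and 90.6 CPM (day 0), 301.8 and 287.3 (day 3), 249.7 and 210.5 (day 5) and 63.2 (day 10). It overlapped at day 0 and was lower in the libraries labelled knockdown at days 3 and 5, with an averaged log2 fold change of −0.37 (SE 0.11, adjusted p = 0.0291). Kif11 (Eg5), the motor that slides spindle microtubules apart, had 140.0 and 136.4 CPM (day 0), 263.7 and 246.7 (day 3), 189.3 and 171.6 (day 5) and 38.8 (day 10) in the libraries labelled knockdown. In control there were 118.4 and 112.3 CPM (day 0), 325.8 and 79.3 (day 3), 274.5 and 263.5 (day 5) and 71.7 (day 10). The libraries labelled knockdown were above control at day 0, between the control libraries at day 3 and below control at day 5. Its averaged value was 0.01 (adjusted p = 0.994), but −0.23 (adjusted p = 0.00548) without control day 3 replicate 2. Tpx2, which activates Aurora A on the spindle, had 323.9 and 292.9 CPM (day 0), 494.9 and 458.1 (day 3), 370.7 and 338.4 (day 5) and 136.3 (day 10) in the libraries labelled knockdown. The control values were 341.8 and 315.9 CPM (day 0), 496.5 and 295.7 (day 3), 440.5 and 421.4 (day 5) and 155.2 (day 10). Only at day 5 did its conditions separate, and its averaged value was −0.04 (adjusted p = 0.867). Kif2c, Nusap1 and Kif4 had averaged values of −0.25 (adjusted p = 0.0923), −0.29 (adjusted p = 0.283) and −0.01 (adjusted p = 0.96), of which Kif2c and Nusap1 passed as lower without that library.

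Of the 5 genes of the central spindle and cytokinesis, 0 passed in either direction with all libraries (11.9% of all genes lower, 15.0% higher). Of the 5 values in this group, 4 were above 0. This was the group in which control day 3 replicate 2 was lowest, with a median of −1.09 relative to control day 0 on the log2 scale, against 0.78 in replicate 1. Anln (anillin), a scaffold of the contractile ring, stood at 139.0 and 150.9 CPM (day 0), 184.6 and 194.2 (day 3), 137.2 and 134.9 (day 5) and 35.7 (day 10) in the libraries labelled knockdown. Control libraries gave 142.1 and 149.8 CPM (day 0), 216.6 and 28.2 (day 3), 188.8 and 195.0 (day 5) and 67.6 (day 10). The conditions overlapped at day 0, and at day 5 both libraries labelled knockdown were below control. The averaged log2 fold change was 0.04 (SE 0.36, adjusted p = 0.949), and without control day 3 replicate 2 it was −0.24 (SE 0.05, adjusted p = 0.00316). Kif20a, a motor needed for cytokinesis, had 127.9 and 140.8 CPM (day 0), 176.7 and 175.9 (day 3), 139.2 and 146.4 (day 5) and 26.9 (day 10) in the libraries labelled knockdown. Control stood at 133.0 and 136.8 CPM (day 0), 185.0 and 88.8 (day 3), 149.5 and 147.8 (day 5) and 42.0 (day 10). Its conditions overlapped at day 0 and differed by little at day 5, and its averaged values were 0.10 (adjusted p = 0.681) with that library and −0.05 (adjusted p = 0.486) without it. Kif23, a motor of the central spindle, had an averaged value of −0.36 (adjusted p = 0.0822), and −0.48 (adjusted p = 1.39e-05) without that library. Prc1, which bundles the microtubules of the spindle midzone, and Ect2, which activates RhoA at the cleavage furrow, had values of 0.24 (adjusted p = 0.525) and 0.25 (adjusted p = 0.651), and 0.02 (adjusted p = 0.85) and −0.02 (adjusted p = 0.906) without it.

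The most used markers of proliferation were not called averaged over the days. Top2a, the topoisomerase that untangles sister chromosomes, was at 399.9 and 352.5 CPM (day 0), 690.3 and 575.4 (day 3), 502.1 and 463.7 (day 5) and 154.2 (day 10) in the libraries labelled knockdown. Control held 356.8 and 334.2 CPM (day 0), 731.7 and 516.7 (day 3), 604.6 and 552.2 (day 5) and 226.9 (day 10). Mki67, which coats mitotic chromosomes, was at 479.4 and 481.4 CPM (day 0), 865.3 and 798.9 (day 3), 642.4 and 641.5 (day 5) and 142.5 (day 10) in the libraries labelled knockdown. In control there were 427.6 and 434.4 CPM (day 0), 1019.6 and 603.3 (day 3), 825.7 and 831.2 (day 5) and 242.0 (day 10). Of days 0, 3 and 5, both separated as lower in the libraries labelled knockdown at day 5 alone, both were also lower in the single library of day 10, and Mki67 was above control at day 0. Their averaged log2 fold changes were −0.04 (adjusted p = 0.837) and −0.06 (adjusted p = 0.778). Once control day 3 replicate 2 was left out these were −0.12 (adjusted p = 0.194) and −0.17 (adjusted p = 0.0229).

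Of the 4 genes of anaphase, Ube2c passed as lower and 0 as higher (11.9% and 15.0% of all genes). Ube2c (ENSMUSG00000001403.11, chromosome 2, 164769898 to 164778822, plus strand, GRCm38), an ubiquitin-conjugating enzyme of the anaphase-promoting complex, had 21.9 and 15.2 CPM (day 0), 30.0 and 24.9 (day 3), 18.6 and 15.2 (day 5) and 6.97 (day 10) in the libraries labelled knockdown. The control values were 25.2 and 23.6 CPM (day 0), 27.9 and 38.8 (day 3), 30.5 and 25.9 (day 5) and 9.84 (day 10). It was lower in the libraries labelled knockdown at days 0 and 5 and overlapped at day 3, with an averaged log2 fold change of −0.47 (SE 0.14, adjusted p = 0.0327). Cdc20, an activator of that complex, had 41.8 and 46.3 CPM (day 0), 56.3 and 64.4 (day 3), 42.9 and 46.3 (day 5) and 8.13 (day 10) in the libraries labelled knockdown. Control libraries gave 37.8 and 42.7 CPM (day 0), 61.6 and 77.8 (day 3), 49.8 and 65.8 (day 5) and 13.9 (day 10). It overlapped at days 0 and 3 and was lower at day 5, with an averaged value of −0.15 (adjusted p = 0.359). Pttg1 (ENSMUSG00000020415.14, chromosome 11, 43420250 to 43426251, minus strand, GRCm38), or securin, the inhibitor of separase, was the gene with values above control at day 5. It stood at 9.77 and 7.79 CPM (day 0), 8.44 and 8.27 (day 3), 9.37 and 7.99 (day 5) and 10.2 (day 10) in the libraries labelled knockdown. Control stood at 6.63 and 5.63 CPM (day 0), 5.46 and 14.1 (day 3), 4.63 and 5.76 (day 5) and 5.23 (day 10). The libraries labelled knockdown were above control at days 0 and 5 and below 1 of the 2 control libraries at day 3, control day 3 replicate 2. Its averaged log2 fold change was 0.36 (SE 0.21, adjusted p = 0.244), the highest of the 40, and 0.63 (adjusted p = 0.00158) without that library. Its CPM was the lowest of the 40 in every library of days 0, 3 and 5. Espl1, which Pttg1 inhibits, had an averaged value of 0.09 (adjusted p = 0.615).

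With time, most of the genes stood higher at days 3 and 5 than at day 0 in both conditions. In the libraries labelled knockdown, 37 of the 40 had both day 3 libraries above both day 0 libraries (26.0% of all genes), the exceptions being Cdc25b, Incenp and Pttg1. The median log2 fold change was 0.60 (−0.01 over all genes), and 1, Cenpe, passed as higher and 0 as lower (0.594% and 0.312% of all genes; unadjusted, 22 and 0; DESeq2, 7 and 0). With the replicate block 3 passed as higher (0.754%), and without control day 3 replicate 2 or 1, 34 did (7.59% and 7.26%). Leaving out any other library of days 0 to 5 gave 0.

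In control, 11 of the 40 were higher at day 3 than at day 0 and 0 lower (5.29% and 5.45% of all genes; unadjusted, 21 and 0; DESeq2, 16 and 0), with a median log2 fold change of 0.58 (0.04 over all genes). They were Birc5, Cdc20, Cdc25c, Cenpa, Cenpe, Cenpf, Hmmr, Mki67, Ndc80, Top2a and Ttk. With control day 3 replicate 2 left out, 33 were higher (13.8%) and 0 lower, while without replicate 1, 16 were higher (25.9%) and 8 lower (28.9%). Leaving out any other library of days 0 to 5 gave 2 to 6 higher. Both day 3 libraries lay above both day 0 libraries for 22 genes (22.3% of all genes), and replicate 1 alone for 39 (40.7%).

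In the libraries labelled knockdown, both day 5 libraries lay below both day 3 libraries for 34 of the 40 (17.1% of all genes), with a median log2 fold change of −0.35 (0.01 over all genes), although 0 passed (0.0152% of all genes higher, 0.0% lower; unadjusted, 0 higher and 6 lower; DESeq2, 0). Leaving out control day 3 replicate 2 made 5 pass as lower (0.130%). In control the median between days 3 and 5 was 0.04, and 0 passed (0.914% of all genes higher, 0.122% lower; unadjusted, 0 higher and 3 lower; DESeq2, 0); without control day 3 replicate 2 it was −0.28 and 1 passed as lower (0.871%). Without replicate 1, 22 passed as higher (28.9% of all genes) and 6 as lower (25.0%).

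At day 5 the median level above day 0 was 0.20 on the log2 scale in the libraries labelled knockdown and 0.47 in control (0.0 over all genes in control). In the libraries labelled knockdown 1 gene, Cenpe, passed as higher and 0 as lower (1.45% and 0.548% of all genes; unadjusted, 3 and 0; DESeq2, 2 and 0). Without control day 3 replicate 2, 9 passed as higher (8.01%), and without any other library of days 0 to 5 outside that pair, 0 did. In control, 6 of the 40 passed as higher and 0 as lower (4.32% and 3.82% of all genes; unadjusted, 16 and 0; DESeq2, 13 and 0), namely Cenpe, Hmmr, Ttk, Cenpf, Ndc80 and Mki67. With the replicate block 10 passed as higher there (5.50%), and without control day 3 replicate 2 or 1, 27 and 26 (17.0% and 16.3%). Leaving out single other libraries gave 1 to 6. Both day 5 libraries lay above both day 0 libraries for 23 of the 40 in the libraries labelled knockdown (27.6% of all genes) and for 37 in control (32.5%).

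Cenpe (ENSMUSG00000045328.9, chromosome 3, 135212537 to 135273611, plus strand, GRCm38), the kinesin that moves chromosomes to the spindle equator, had the largest rise in control between day 0 and day 5. It stood at 228.3 and 199.6 CPM (day 0), 476.7 and 391.0 (day 3), 409.6 and 376.0 (day 5) and 84.1 (day 10) in the libraries labelled knockdown. Control held 179.5 and 162.0 CPM (day 0), 545.5 and 429.9 (day 3), 439.2 and 407.6 (day 5) and 96.4 (day 10). Every library of days 3 and 5 was above every library of day 0 in its condition. Its log2 fold change between day 0 and day 5 was 0.88 (SE 0.19, adjusted p = 0.0497) in the libraries labelled knockdown and 1.31 (SE 0.19, adjusted p = 0.00251) in control. At day 0 both libraries labelled knockdown lay above both of control, so the changes to day 5 start from unlike levels. The conditions overlapped at days 3 and 5, and the averaged difference of Cenpe was 0.02 (adjusted p = 0.93). For Hmmr the change to day 5 was 0.50 (adjusted p = 0.281) in the libraries labelled knockdown and 1.22 (adjusted p = 0.00327) in control. For Ttk it was 0.54 (adjusted p = 0.453) and 1.15 (adjusted p = 0.0235), and for Mki67 0.42 (adjusted p = 0.551) and 0.94 (adjusted p = 0.0349). Kinetochore genes had a median change of 0.35 in the libraries labelled knockdown and 1.03 in control, and spindle motors one of 0.25 and 0.82. Mitotic kinases and passengers had smaller medians, 0.13 and 0.26, and Pttg1 had values of −0.02 and −0.24.

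**Figure D4:**
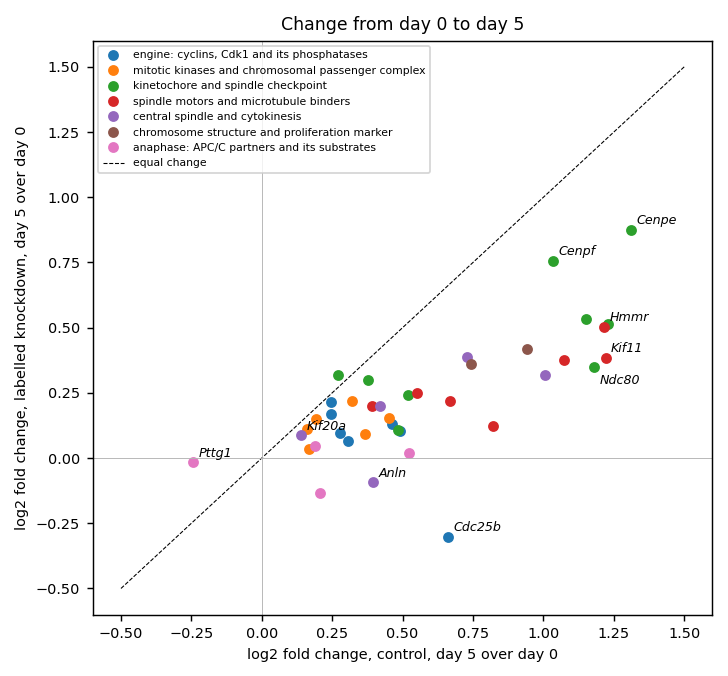
Log2 fold change of each of the 40 genes between day 0 and day 5 in libraries labelled knockdown (y axis) against control (x axis), coloured by role, with the line of equal change dashed. Of the 40 points 38 lie below the line, with Cenpe at the upper right (0.88 and 1.31) and Pttg1 at the lower left (−0.02 and −0.24).

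The change to day 5 was smaller in the libraries labelled knockdown for 38 of the 40 genes, the exceptions being Mad2l1 and Pttg1. No library is shared by these changes, and across the 40 genes they had a Pearson correlation of 0.72 and a Spearman correlation of 0.71 (Pearson 0.44 over all genes), as a description. The difference of the changes had a median of −0.32 (−0.02 over all genes), and 0 of the 40 passed in the test of that difference (0.564% of all genes lower, 0.800% higher; unadjusted, Cdc25b and Hmmr lower and 0 higher; DESeq2, 1 lower). Without control day 3 replicate 2, 9 passed as lower (5.00%), and the same 9 did without replicate 1 (4.72%). They were Anln, Bub1, Cdc25b, Hmmr, Kif11, Kif4, Mki67, Nusap1 and Ttk. Both fits hold the same libraries of days 0 and 5, so that this agreement is no separate check. Kif11 had a difference of the changes of −0.85 (adjusted p = 0.00118) without that library, whereas Plk1 and Mad2l1, lower by a like amount at both days, had −0.05 (adjusted p = 0.891) and 0.04 (adjusted p = 0.909).

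Day 10 had 1 library in each condition, so that its values have no replicate check and no test. Against the mean of day 5, 38 of the 40 genes were more than 2-fold lower in the library labelled knockdown (5.38% of all genes), the exceptions being Cdc25b and Pttg1, and 39 in control (5.95%), the exception being Pttg1. The median log2 ratios were −2.00 and −1.67, which ran from −2.54 (Hmmr) to 0.24 (Pttg1) in the library labelled knockdown and from −2.14 (Cenpe) to 0.01 (Pttg1) in control. Against day 0 the medians were −1.78 and −1.10. Ndc80, Ttk and Bub1, at log2 ratios of −0.30, −0.40 and −0.41 to day 0 in control, stood at −1.27, −1.44 and −1.44 in the library labelled knockdown.

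Between the conditions at day 10, 38 of the 40 were lower in the library labelled knockdown, with a median log2 ratio of −0.74 (−0.02 over all genes), and 10 were more than 2-fold lower (4.96% of all genes). The 10 were Kif15, Hmmr, Kif23, Ccnb2, Nuf2, Bub1b, Ccnb1, Plk1, Birc5 and Bub1, from −1.59 for Kif15 to −1.04 for Bub1. Cdk1, at −0.03, and Cdc25b, at 0.08, were nearly level, and Pttg1 was 1.96 times higher. Ribosomal protein genes took 7.90% of the counts of the library labelled knockdown and 11.2% of those of control at this day, and the part of this in the ratios was not tested.

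Other genes of the same pathway were set beside the 40, each list described by its counts. Of 78 other mitotic genes, 20 were lower and 2 higher averaged over days 0, 3 and 5 (45 and 4 without control day 3 replicate 2), beside 11.9% lower and 15.0% higher of all genes (22.2% and 24.9% without it), with a median log2 fold change of −0.22. The lowest adjusted p belonged to Cit, the citron kinase of cytokinesis (−0.61, SE 0.09, adjusted p = 0.00074), and Mad1l1, the kinetochore anchor of Mad2 (−0.54, SE 0.09, adjusted p = 0.00197). Gtse1 (0.44, SE 0.11, adjusted p = 0.0159) and Racgap1, the partner of Kif23 and Ect2 in the central spindle (0.46, SE 0.13, adjusted p = 0.0278), were the 2 that were higher. Of 17 genes for subunits and regulators of the anaphase-promoting complex, 3 were lower and 1 higher, a small list near those shares. Anapc7 stood at −0.81 and Anapc5 at −0.44 (adjusted p = 0.00713 and 0.0238), and Cdc16 at 0.34 (adjusted p = 0.0204).

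Among 22 transcription factors and repressors of cell cycle genes, Mybl2 alone passed with all libraries, as lower. That is less than the shares over all genes, 11.9% lower and 15.0% higher. Mybl2, or B-MYB, which with MuvB activates mitotic genes, stood at 16.7 and 17.6 CPM (day 0), 27.0 and 28.7 (day 3), 19.8 and 21 (day 5) and 5.11 (day 10) in the libraries labelled knockdown. In control it had 33.2 and 27.2, 37.6 and 36.1, 26.3 and 27.5, and 11.8 CPM on these days. It was lower in the libraries labelled knockdown at every day without overlap (log2 fold change −0.54, SE 0.10, adjusted p = 0.00268). Of the 22, 6 were lower and 4 higher without control day 3 replicate 2, near the 22.2% and 24.9% of all genes. Of 39 genes of DNA replication, 7 were lower and 0 higher averaged over the days (15 and 3 without that library; 11.9% and 15.0% of all genes, 22.2% and 24.9% without it), led by Tyms, thymidylate synthase, at −0.81 (SE 0.12, adjusted p = 0.000819), and Mcm7, a subunit of the replicative helicase, at −0.54 (SE 0.09, adjusted p = 0.00195). The difference of the changes between day 0 and day 5, labelled knockdown minus control, had a median of 0.36 over the 39 replication genes, −0.23 over the 78 other mitotic genes and −0.32 over the 40, a description with no test between the lists. Of the 39, 0 passed in it as higher with all libraries (0.800% of all genes) and 7 without control day 3 replicate 2 (5.07%).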

How the data were processed

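RNA of MC3T3-E1 cells was sequenced in 14 libraries. Poly(A) selection followed a DNase step and the libraries were directional, per the labels' protocols. The submitters' processing notes name bcl2fastq, TopHat2, edgeR and GRCm38. Which tool counted the reads, with which strand setting and annotation, is stated in no source used here, so overlapping genes and close copies may hold each other's reads. The authors' deposited tables hold raw counts per gene, and RPKM values computed per gene length and library. In 7174 genes compared, the deposited RPKM equalled the counts scaled by gene and library within 0.462%. No per-sample column had to be left out. Gene positions and exon lengths came from GENCODE M21 on GRCm38.

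The 40 genes, the other lists and the tests were chosen with earlier results of these data known. The 13130 genes with 10 or more counts in 2 or more libraries were tested, with TMM scaling and a mean for each of the 8 groups, by edgeR 4.0.16 in R 4.3.3 (robust quasi-likelihood test, 6 residual degrees of freedom, Benjamini-Hochberg adjustment over all genes tested, threshold 0.05). The code was tested on simulated data. CPM are on the TMM scale. Alternatives were RLE scaling, DESeq2 1.42.0, limma 3.58.1 on log2(RPKM + 1), no filter, the replicate number as a block, no day 3, and leaving out each library. Same-numbered libraries of the conditions deviated together from their group means, with correlations of 0.329, 0.158 and 0.326 at days 0, 3 and 5. Between days, though, the correlations spanned 0.0286 to 0.406. The main tests did not pair the libraries. Only the alternative with the replicate block did so, by the numbers in the titles. Replicates differed beyond sampling noise, with chi-square over degrees of freedom of 12.5 to 39.0 in 5 pairs and 169.4 in control day 3, so no pair was counted as 1 library.

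Values in every library were given for 22 genes fixed by name, for the members with the largest and smallest values in the averaged comparison and in control day 5 against day 0, and for up to 4 genes of each other list by the lowest adjusted p, of which some are given by their test values only. Ccnb2 and Hmmr, which both passed as lower averaged over the days, were also given in every library, outside this rule. Statistics of other members were added for completeness. Promoters were shown for the first 5 of a fixed order that hold both motifs, and for Mad2l1, whose RefSeq window holds neither. Python 3 with pandas and matplotlib made the tables and figures.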

Additional observations from a re-analysis of the deposited data

How the results depend on the processing

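Counts of the 40 genes moved with the settings. The counts by unadjusted p, DESeq2, limma, no filter and no day 3 are given without the share over all genes in that setting. The same holds for the counts without a single library outside the control day 3 pair. Such counts can move because calls over all genes do, and so are no result about the 40 alone. The averaged values of Cenpe, Ect2, Kif20a, Kif11, Anln, Cdc25c, Cdk1 and Ccna2, none of which passed with all libraries, changed sign without control day 3 replicate 2. Averaged over days 0, 3 and 5, the 8 lower genes became 4 with limma on RPKM and 19 (with 1 higher) without day 3. At day 0 DESeq2 called 1 lower. The 2 lower at day 3 became 4 with DESeq2 and 1 with limma, and the 0 lower at day 5 became 4 with DESeq2 and 2 with no filter. In the libraries labelled knockdown, the 1 higher at day 3 became 7 with DESeq2, 4 with no filter and 0 with limma, and the 1 higher at day 5 became 2 with DESeq2 and 0 with limma. In control, the 11 higher at day 3 became 4 with limma, and the 6 higher at day 5 became 13 with DESeq2, 12 with no filter and 2 with limma. The difference of the changes to day 5 had 1 lower with DESeq2. With the replicate block, which pairs libraries by number, 4 were lower at day 5, and in the changes from day 0, 3 genes were higher at day 3 in libraries labelled knockdown and 10 genes at day 5 in control; it changed no other call by over 1.5 times. In deposited RPKM, 2 genes (Birc5 and Cenpa) in place of 4 had all 6 libraries labelled knockdown below control (6.32% of all genes). In CPM without control day 3 replicate 2, an alternative chosen after seeing the data, 15 did (15.1%) and 1 lay above (17.6%). Leaving out 1 library at a time gave these ranges. Labelled knockdown against control gave 4 to 25 lower and 0 to 6 higher averaged, 0 to 11 lower and 0 to 2 higher at day 0, 0 to 15 lower and 0 to 19 higher at day 3, and 0 to 28 lower and 0 to 1 higher at day 5. The libraries labelled knockdown gave 0 to 34 higher at day 3 against day 0, 0 to 5 lower at day 5 against day 3 and 0 to 9 higher at day 5 against day 0. Control gave 2 to 33 higher and 0 to 8 lower at day 3 against day 0, 0 to 22 higher and 0 to 6 lower at day 5 against day 3, and 1 to 27 higher at day 5 against day 0. The difference of changes gave 0 to 9 lower. The extremes come from leaving out either control library of day 3, which takes the spread of that pair out of the fit and leaves 1 library there that is assumed to vary like the other groups; the cause of that pair's difference was not tested. With 2 libraries a group and 1 at day 10, small changes cannot be told from the spread.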
